A study of Rattus norvegicus with 6 samples.

Results

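Expression of 9 genes that encode enzymes of glycogen synthesis and breakdown was examined in the diaphragm of diabetic and normal rats. The genes were Gyg1, Ugp2, Gys1 and Gbe1 for synthesis, Pygm, Phka1, Phkb and Phkg1 for breakdown, and Pgm1, which serves both directions. They were taken as a named set, and every probe set annotated to exactly 1 of them was used, which gave 9 of 10412 named genes and 13 of the 15923 probe sets on the Affymetrix RAE 230A array, a short-oligonucleotide array of rat transcripts.

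The diabetic group was 3 male Wistar rats injected intraperitoneally at 8 weeks of age with streptozotocin, 60 mg/kg in citrate buffer, and the normal group was 3 male Wistar rats of the same age given the buffer without the drug. Streptozotocin is a toxin of the insulin-producing beta cells of the pancreas, and the diabetic rats received no insulin or other glucose-lowering treatment. Left costal hemidiaphragm was taken from all 6 rats 4 weeks later, after a night without food, and total RNA from each rat was hybridized to its own array. The values are MAS 5.0 signals, linear intensities scaled per array, so that 1 probe set can be read across rats, while levels of separate probe sets give no order of genes.

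Glycogen is the branched glucose polymer that muscle keeps as a local fuel. On the way in, glucose 6-phosphate is turned into glucose 1-phosphate by phosphoglucomutase (Pgm1) and activated to UDP-glucose by Ugp2, the protein glycogenin (Gyg1) starts a chain on itself, glycogen synthase (Gys1) lengthens it, and the branching enzyme (Gbe1) adds the branches. On the way out, muscle glycogen phosphorylase (Pygm) releases glucose 1-phosphate and Pgm1 turns it back into glucose 6-phosphate. Phosphorylase is switched on by phosphorylase kinase, a large complex of a catalytic gamma subunit (Phkg1 in muscle), regulatory alpha (Phka1 in muscle) and beta (Phkb) subunits, and calmodulin as the delta subunit.

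Array quality and tissue were checked over all probe sets. Array medians ranged over 167.1 to 180.5 signal units. The summed signal of 5 skeletal muscle markers (Acta1, Ckm, Des, Mb and Actn2), all above the signal filter, was 91237 to 125860 on the diabetic arrays and 102160 to 128960 on the normal arrays. Of these 5 markers Mb, the oxygen-binding protein myoglobin, was called lower (log2 fold change -0.56, adjusted p = 0.0386), with every diabetic array below every normal array, and the other 4 did not pass. The 6 liver markers, of an organ with its own glycogen enzymes, all had mean signals below the filter level of 105.8. The summed signal of 9 fast-fibre markers was 119910 to 154290 on the diabetic arrays and 164650 to 188770 on the normal arrays, without overlap, whereas that of 7 slow-fibre markers was 130120 to 175590 on the diabetic and 137200 to 164240 on the normal arrays. In whole muscle, fewer fibres of a type and less RNA per fibre cannot be told apart.

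Of the 13 probe sets, 3 were lower in diabetic than in normal diaphragm and none was higher at an adjusted p under 0.05 (limma, moderated test on log2 signals, Benjamini-Hochberg over the 9519 probe sets above the signal filter). All 13 had passed that filter on mean signal. Across the array 3.48% of the tested probe sets were called lower and 3.30% were called higher, against 23.1% lower among the 13. The log2 fold change was below 0 for 12 of the 13, with a median of -0.52, against a median of 0.00339 over all tested probe sets. All 3 diabetic arrays lay below all 3 normal arrays for 6 of the 13 probe sets (46.2%), against 14.4% of all tested probe sets, and above them for none, against 15.2%. The 3 called probe sets were both of Pgm1 and the brighter of Phka1. Pgm1 had been reported lower by the study on these arrays, and the set was chosen with earlier results of these data known. The 4 synthesis genes had a median log2 fold change of -0.16 and the 7 probe sets of the 4 breakdown genes a median of -0.64. Without normal replicate 3, only 1 of the 13 was called.

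**Figure D1:**
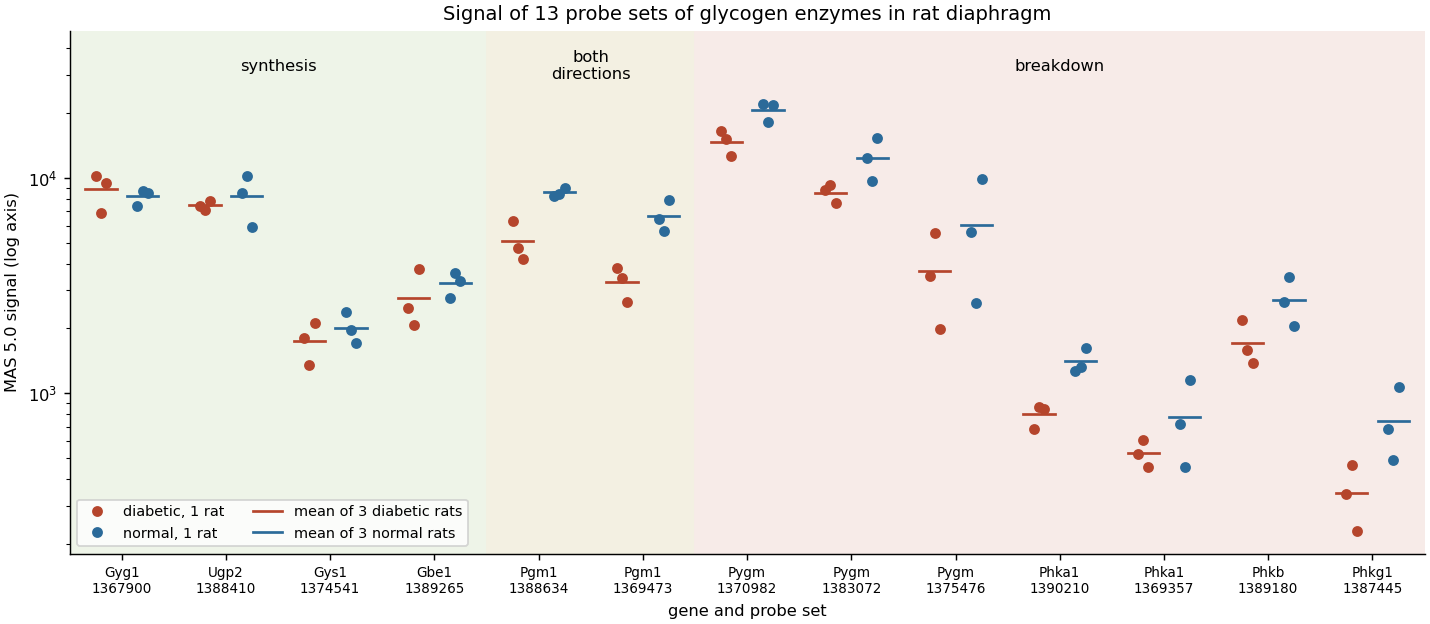
MAS 5.0 signal on a log axis of each of the 13 probe sets, with 1 point per rat, diabetic rats on the left of each pair and normal rats on the right, and a line at the mean of 3. The groups overlapped for all 4 synthesis probe sets, and every diabetic point lay below every normal point for both probe sets of Pgm1, the 2 brighter ones of Pygm, the brighter one of Phka1 and that of Phkg1.

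The sequences just upstream of the genes at the centre of these differences are given for orientation, as the 250 bases before the annotated start of transcription from RefSeq on build GRCr8. Pgm1 and Phka1 are shown because they were called lower, Phkg1 and Pygm because their groups did not overlap on the brightest probe set of each, without passing the test, and Gys1 as the synthesis counterpart of Pygm. Capitals mark matches on either strand to 7 short motifs, which were the CCAAT box (CCAAT), the GC box (GGGCGG), the TATA box (TATAAA), the myogenic E-box (CAGCTG), the USF E-box (CACGTG), the core of the FoxO site (GTAAACA) and a MEF2-like pattern (CTANNNNTAG). In the last, each N was read as any base, so that it is not the exact MEF2 site.
Pgm1, chr5:119710484-119710733, plus strand: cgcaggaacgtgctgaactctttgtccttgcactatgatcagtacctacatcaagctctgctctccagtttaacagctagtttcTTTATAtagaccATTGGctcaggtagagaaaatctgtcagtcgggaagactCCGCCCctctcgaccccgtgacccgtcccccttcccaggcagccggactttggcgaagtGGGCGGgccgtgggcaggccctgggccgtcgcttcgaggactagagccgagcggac
Phka1, chrX:71778122-71778371, minus strand: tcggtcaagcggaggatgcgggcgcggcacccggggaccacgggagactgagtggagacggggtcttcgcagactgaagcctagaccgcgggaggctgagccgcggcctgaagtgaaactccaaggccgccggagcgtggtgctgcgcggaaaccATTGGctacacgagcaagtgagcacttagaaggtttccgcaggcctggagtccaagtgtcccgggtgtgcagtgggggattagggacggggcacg
Phkg1, chr12:32474827-32475076, plus strand: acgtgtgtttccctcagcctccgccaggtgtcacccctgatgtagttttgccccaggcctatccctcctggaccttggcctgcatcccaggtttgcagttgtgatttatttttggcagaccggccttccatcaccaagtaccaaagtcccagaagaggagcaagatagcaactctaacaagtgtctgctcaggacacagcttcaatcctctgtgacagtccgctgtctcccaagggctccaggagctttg
Pygm, chr1:213119555-213119804, plus strand: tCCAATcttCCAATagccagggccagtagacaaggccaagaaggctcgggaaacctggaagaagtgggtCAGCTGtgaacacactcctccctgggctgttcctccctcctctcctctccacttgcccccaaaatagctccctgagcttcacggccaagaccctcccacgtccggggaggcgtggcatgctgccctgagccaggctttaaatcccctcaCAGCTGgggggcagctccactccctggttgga
Gys1, chr1:105051666-105051915, plus strand: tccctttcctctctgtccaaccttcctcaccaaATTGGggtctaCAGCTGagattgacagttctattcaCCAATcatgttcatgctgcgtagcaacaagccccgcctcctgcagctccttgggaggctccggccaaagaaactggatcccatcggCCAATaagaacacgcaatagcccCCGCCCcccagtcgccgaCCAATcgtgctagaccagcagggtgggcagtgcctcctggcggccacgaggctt

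The motifs were found in 34%, 30.5%, 12.9%, 12%, 5.59%, 3.21% and 3.41% of 33465 rat promoter windows of the same length, in the order given. Pgm1 had 1 match to the CCAAT box, 2 to the GC box and 1 to the TATA box, the last of them 166 to 161 bases before the start. Pygm had 2 myogenic E-boxes, at 181 to 176 and 32 to 27 bases before the start, and 2 CCAAT boxes. Gys1 had 4 CCAAT boxes, 1 GC box and 1 myogenic E-box. Phka1 had 1 CCAAT box and Phkg1 had no match to any of the 7. None of the windows of the 9 genes held the FoxO core or the MEF2-like pattern as written. Among the genes not printed, the window of Gyg1 held the only USF E-box. No 2 matches overlapped. A match is a description of the letters, and its use by a factor was not measured here.

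Synthesis was followed gene by gene. Gyg1, which primes new glycogen particles, had signals of 10228.5, 6884.6 and 9437.5 in diabetic diaphragm and 7439.3, 8662.2 and 8509.8 in normal diaphragm. The diabetic values lay on both sides of the normal ones, and the log2 fold change was 0.09 (95% interval -0.28 to 0.47, adjusted p = 0.787 from limma). Ugp2, which makes UDP-glucose, had signals of 7443.9, 7063.3 and 7837.9 in diabetic and 8530.0, 10216.8 and 5929.9 in normal diaphragm. Its diabetic values were close together and lay inside the range of the normal ones (log2 fold change -0.11, 95% interval -0.53 to 0.31, adjusted p = 0.776).

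Gys1, the glycogen synthase of muscle, had signals of 1802.0, 1354.3 and 2108.0 in diabetic and 2375.5, 1955.6 and 1701.9 in normal diaphragm, a ratio of mean signals of 0.873. The groups overlapped, and the interval of the log2 fold change ran from -0.64 to 0.23 around -0.21 (adjusted p = 0.574). Gbe1, the branching enzyme, had signals of 2488.3, 2064.6 and 3794.0 in diabetic and 2780.5, 3630.0 and 3309.7 in normal diaphragm. Diabetic replicate 3 was the highest of the 6 arrays for Gbe1 and the other diabetic arrays were the lowest, and the difference was -0.26 on the log2 scale (95% interval -0.74 to 0.23, adjusted p = 0.517). No synthesis gene passed the test. The intervals of Ugp2, Gys1 and Gbe1 reach down past the log2 fold change of -0.49 found for the brightest probe set of Pygm, whereas that of Gyg1 does not.

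Pgm1, the enzyme common to both directions, is 1 of the genes that the study itself picked out on these same arrays, so its direction here is no independent evidence. The study also reported lower Pgm1 by real-time PCR on tissue from the same rats. On its brighter probe set, 1388634_at, the signals were 6340.0, 4705.1 and 4219.9 in diabetic diaphragm, against 8253.4, 8451.7 and 9008.3 in normal diaphragm. On the dimmer one, 1369473_at, they were 3811.2, 3420.3 and 2647.3 in diabetic and 6462.1, 5647.9 and 7911.7 in normal diaphragm. Every diabetic rat was below every normal rat on both, by a ratio of mean signals of 0.594 on the brighter and 0.493 on the dimmer probe set. The log2 fold changes were -0.77 (standard error 0.17, adjusted p = 0.0222) and -1.02 (standard error 0.18, adjusted p = 0.0102). The dimmer probe set passed whichever of the 6 arrays was dropped (adjusted p up to 0.0343). The brighter one passed only without diabetic replicate 1, and with any other array left out its adjusted p was 0.0578 to 0.0733.

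Breakdown was led by Pygm, the phosphorylase that cuts glucose units from glycogen. The brightest of its 3 probe sets, 1370982_at, had signals of 16484.9, 15110.3 and 12644.0 in diabetic diaphragm and 22097.7, 18160.4 and 21911.8 in normal diaphragm. The second, 1383072_at, had signals of 8771.6, 9221.8 and 7620.7 in diabetic and 12321.1, 9661.5 and 15288.1 in normal diaphragm. The groups did not overlap on either, but neither passed the test across all probe sets, with log2 fold changes of -0.49 (95% interval -0.82 to -0.16, adjusted p = 0.0760) and -0.52 (95% interval -0.91 to -0.13, adjusted p = 0.110). Neither passed when any 1 of the 6 arrays was dropped.

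The third probe set of Pygm, 1375476_at, had signals of 3487.8, 5566.7 and 1981.1 in diabetic and 5606.7, 2623.1 and 9891.4 in normal diaphragm. Its groups overlapped and its spread was far wider than that of the others (log2 fold change -0.64, standard error 0.45, adjusted p = 0.434). This probe set was followed further after its values had been seen, beside the 3′/5′ signal ratio of the GAPDH control probe sets, which compares probes at both ends of 1 transcript. The brightest Pygm probe set over this one was 4.73, 2.71 and 6.38 on the diabetic arrays and 3.94, 6.92 and 2.22 on the normal arrays. The GAPDH 3′/5′ ratio of the same arrays was 2.91, 1.49 and 3.997 on the diabetic arrays and 2.71, 4.02 and 1.27 on the normal arrays. The higher of these lie above the range that the study reported for this GAPDH ratio, and the reason was not tested. The Pygm and GAPDH ratios put the 6 arrays in the same order, across the groups. The beta-actin 3′/5′ ratio gave another order, with 1.71, 1.17 and 1.69 on the diabetic arrays and 1.475, 2.27 and 1.38 on the normal arrays. The higher beta-actin values also lie above the range that the study reported for that ratio, for a reason that was not tested. The brightest over the second Pygm probe set stayed between 1.43 and 1.88. The position of each probe set in its transcript was not used here, and the part of RNA or labelling quality in these signals was not tested.

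**Figure D2:**
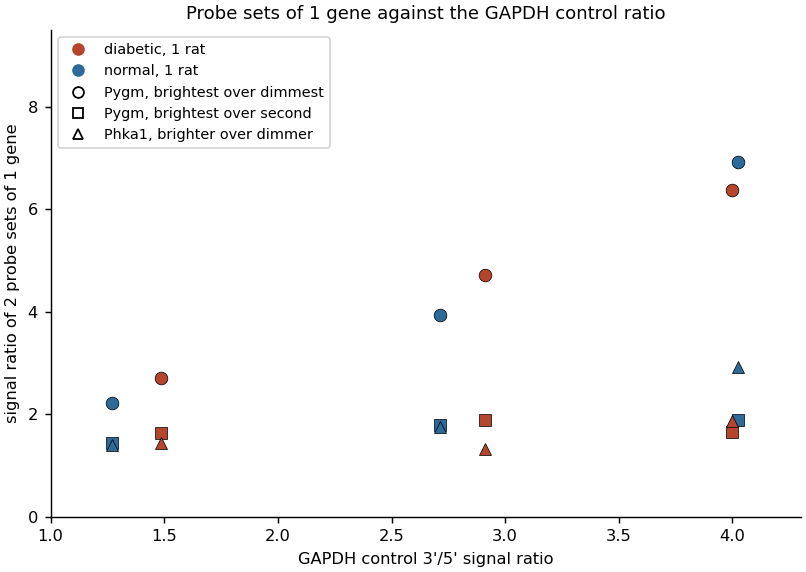
Signal ratio of 2 probe sets of 1 gene (vertical axis) against the 3′/5′ signal ratio of the GAPDH control (horizontal axis), with 1 symbol per array, diabetic in red and normal in blue. The ratio of the brightest to the dimmest Pygm probe set runs from 2.22 to 6.92 and rises with the GAPDH ratio over the 6 arrays, while the brightest to second ratio (squares) stays between 1.43 and 1.88 and the ratio of the Phka1 probe sets (triangles) lies between 1.31 and 2.92.

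Phosphorylase kinase was represented by 3 subunit genes. Phka1, the alpha subunit of muscle, had signals of 684.4, 867.3 and 845.0 in diabetic and 1269.7, 1328.7 and 1613.0 in normal diaphragm on its brighter probe set, 1390210_at. All diabetic values were well below all normal ones, a ratio of mean signals of 0.569, and it passed the test at -0.81 on the log2 scale (standard error 0.17, adjusted p = 0.0188). Dropping 1 array at a time, it passed in 4 of 6 fits, and did not without diabetic replicate 1 (adjusted p = 0.0617) or normal replicate 3 (adjusted p = 0.0547). The dimmer probe set, 1369357_at, had signals of 521.1, 603.8 and 452.3 in diabetic and 721.2, 455.2 and 1156.5 in normal diaphragm. It overlapped through normal replicate 2, the array with the highest GAPDH 3′/5′ ratio, and did not pass (log2 fold change -0.47, standard error 0.29, adjusted p = 0.355).

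Phkg1, the catalytic subunit of muscle, had signals of 338.5, 461.8 and 228.6 in diabetic diaphragm, against 684.1, 488.6 and 1063.8 in normal diaphragm. Every diabetic array was below every normal array, though diabetic replicate 2 and normal replicate 2 were close. This was the lowest log2 fold change of the 13 probe sets, -1.10, but also 1 of the least precise (standard error 0.31), and it missed the threshold (adjusted p = 0.0597). Dropping 1 array at a time, it passed in 1 of 6 fits, and in the others its adjusted p was 0.0504 to 0.169. The fit it passed was without normal replicate 2 (log2 fold change -1.37, adjusted p = 0.0386), the array with the highest GAPDH 3′/5′ ratio. Within each group the Phkg1 signals ran in the opposite order to that ratio, whose part in them was not tested. Against the beta-actin 3′/5′ ratio this held in the normal group but not in the diabetic group.

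Phkb, the beta subunit, had signals of 2188.4, 1580.8 and 1380.2 in diabetic and 2639.8, 3455.4 and 2059.6 in normal diaphragm. Diabetic replicate 1 lay above normal replicate 3, so the groups overlapped, and the log2 fold change of -0.66 (standard error 0.22) did not pass (adjusted p = 0.110). The brightest probe set of each of the 3 subunit genes thus had a mean below that of normal muscle, with 95% intervals of -1.18 to -0.44 for Phka1, -1.16 to -0.16 for Phkb and -1.79 to -0.42 for Phkg1. These intervals overlap one another, and differences among the subunits were not tested.

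Group means of the breakdown genes and of the fast-fibre markers were both lower in diabetic diaphragm, but single arrays did not keep 1 order. Diabetic replicate 3 had the highest summed fast-fibre signal of its group, 154290, but the lowest brightest-probe-set signals of Pygm, Phkb and Phkg1. Normal replicate 2 had the lowest summed fast-fibre signal of its group, 164650, with the lowest Pygm and Phkg1 but the highest Phkb. By the brightest probe set of each gene, all 9 fast-fibre genes tested had a negative log2 fold change, with a median of -0.32, and 2 of them were called lower, or 22.2%, against 3.48% of all tested probe sets, whereas none of 7 slow-fibre genes passed and their median was -0.09. Of the 4 other probe sets of Myh1, a fast myosin heavy chain, 2 had positive values (0.18 and 0.60) and none passed. Myh4, the fastest myosin heavy chain, had signals of 3050.5, 1974.9 and 1677.5 in diabetic and 7494.6, 8704.6 and 6874.5 in normal diaphragm (log2 fold change -1.82, adjusted p = 0.00165). Pvalb, a calcium buffer of fast fibres that the study picked out on these arrays, changed by -1.72 on that scale (adjusted p = 0.00608). The part of fibre composition in the result for the glycogen genes was not tested.

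**Figure D3:**
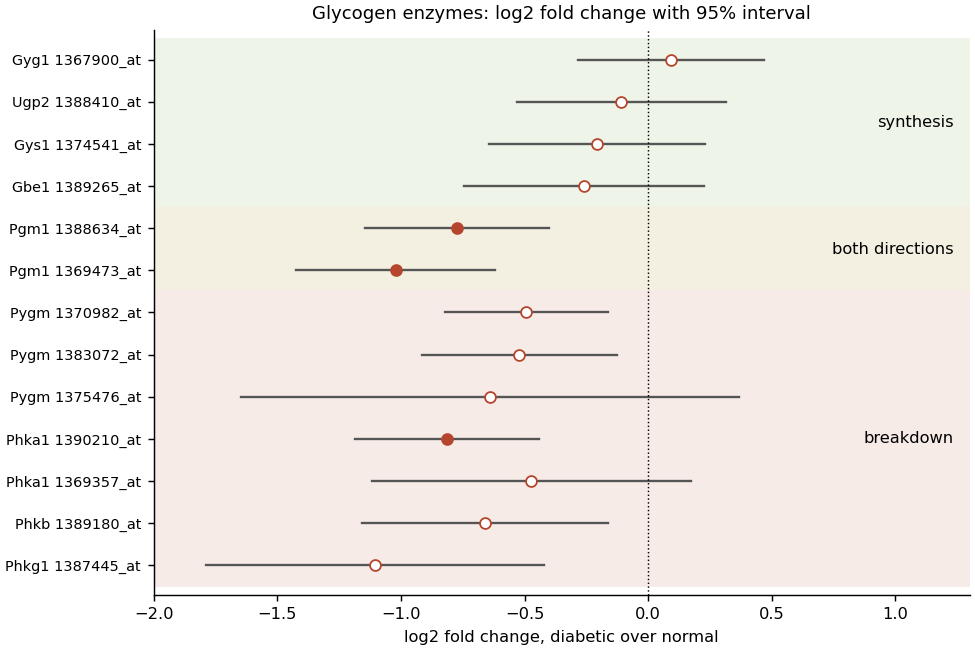
Log2 fold change of the 13 probe sets, diabetic over normal, with the 95% interval of the limma fit as a line. Filled circles passed at an adjusted p under 0.05, which were both probe sets of Pgm1 (-0.77 and -1.02) and the brighter one of Phka1 (-0.81), and the intervals of the 4 synthesis genes all cross 0.

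Synthesis was set against breakdown within each array by taking the log2 ratio of each of the 4 synthesis genes over each of the 4 breakdown genes, each gene by its brightest probe set. A change of such a ratio between groups does not depend on how an array was scaled as a whole. The level of a ratio is not read, since the probe sets differ. All 16 ratios had a higher mean in diabetic than in normal diaphragm, with differences of 0.23 to 1.20 on the log2 scale and a median of 0.60, and 4 of them did not overlap between groups. The 16 share 8 genes and are not independent of one another.

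Gyg1 over Phka1 had log2 ratios of 3.90, 2.99 and 3.48 on the diabetic arrays and 2.55, 2.70 and 2.40 on the normal arrays. All diabetic ratios were above all normal ones, with a difference of 0.91, so that the signal ratio was 1.87 times as high in diabetic muscle (p = 0.1 by a 2-sided exact permutation, which is the floor for 3 rats against 3, and 0.356 after adjustment over the 16 pairs). Gyg1 over Phkb, Ugp2 over Phka1 and Ugp2 over Phkb did not overlap either, with differences of 0.75, 0.70 and 0.55. When the probe sets of a gene were averaged, both of these pairs with Phka1 overlapped, and only those with Phkb stayed apart. The difference of Gyg1 over Phka1 was then 0.73. For single probe sets, all diabetic arrays lay above all normal arrays in 15.2% of those tested, but no such share was taken over pairs.

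The ratio of the 2 key enzymes, Gys1 over Pygm, was -3.19, -3.48 and -2.58 on the diabetic arrays and -3.22, -3.22 and -3.69 on the normal arrays. The groups overlapped, with a standard deviation of 0.46 in the diabetic and 0.27 in the normal group. The difference was 0.29 (exact permutation test, p = 0.4, adjusted p = 0.492 over the 16 pairs). It was 0.04 without diabetic replicate 3, 0.13 without normal replicate 3, 0.48 without diabetic replicate 2 and 0.12 after quantile normalization. Gys1 over Phkg1 differed by 0.90 and Gbe1 over Phkg1 by 0.85, also with overlap (exact permutation tests, p = 0.3 each). This exact test cannot give a p under 0.1 with 3 rats per group, so none of the 16 pairs could pass it at 0.05. The mean log2 signal of the 4 synthesis genes minus that of the 4 breakdown genes was 1.34, 0.957 and 1.86 on the diabetic arrays and 0.762, 0.987 and 0.469 on the normal arrays. Diabetic replicate 2 was the array that lay among the normal ones, and without it 11 of the 16 ratios did not overlap between groups. Without normal replicate 2, 10 did not. With any other array left out, 4 or 5 did not. These 2 replicates were the arrays of their groups nearest the other group, and fewer arrays make separation easier. The higher counts are therefore no evidence of a difference. Within each group this measure put the arrays in the same order as the GAPDH 3′/5′ ratio. That ratio was 2.91, 1.49 and 3.997 on the diabetic arrays and 2.71, 4.02 and 1.27 on the normal arrays. On this measure and the GAPDH ratio, diabetic replicate 2 was the lowest diabetic array and normal replicate 2 the highest normal array. The beta-actin 3′/5′ ratio gave the same order in the normal group but not in the diabetic group. There, replicate 1 was the highest at 1.71 and replicate 3 had 1.69. The part of RNA or labelling quality in the ratios was not tested.

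**Figure D4:**
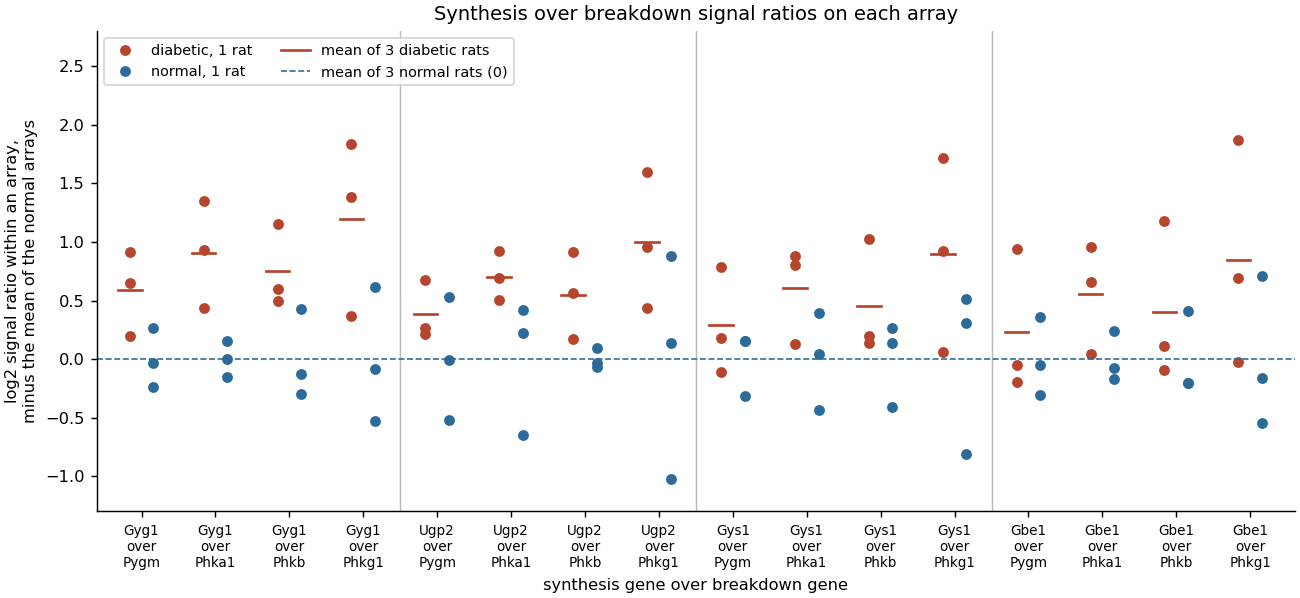
Log2 signal ratio of each synthesis gene over each breakdown gene on each array, after subtraction of the mean of the normal arrays (dashed line at 0), with diabetic rats on the left and normal rats on the right of each pair. All 16 diabetic means lie above 0, from 0.23 to 1.20, and in 12 of the 16 pairs the points of the groups overlap.

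Other genes of glycogen metabolism were taken from a list of 40, of which 29 had a probe set and 22 passed the signal filter, each by its brightest probe set. None of the 22 passed limma's test in either direction (6 had an unadjusted p under 0.05, or 27.3%, against 23.9% of all tested probe sets), and their median log2 fold change was -0.23, against 0.00339 over all tested probe sets. All diabetic arrays lay below all normal arrays for 6 of them, or 27.3%, against 14.4% of all tested probe sets, and above for 2, against 15.2%. Calm2, 1 of the calmodulin genes and so a source of the delta subunit of phosphorylase kinase, had signals of 2436.2, 3332.9 and 3040.1 in diabetic and 3646.1, 4683.7 and 6026.9 in normal diaphragm. It was singled out after its values had been seen. Its groups did not overlap and it missed the threshold (log2 fold change -0.69, standard error 0.20, adjusted p = 0.0691). It passed without normal replicate 1 (adjusted p = 0.0472), but with no other array left out and in no other alternative at an adjusted p under 0.05.

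Isoforms best known from other tissues were measured too. Pygb, the brain form of phosphorylase, had a log2 fold change of 0.04 (95% interval -0.32 to 0.40), and Phkg2, the liver form of the catalytic kinase subunit, of 0.10 (95% interval -0.32 to 0.52). Pygl, the liver phosphorylase, and Gys2, the liver synthase, were below the signal filter, with mean signals of 84.9 and 54.7 in diabetic diaphragm and 117 and 17.3 in normal diaphragm. Whether the muscle isoforms differ in response from these isoforms was not tested. Gaa, which degrades glycogen in lysosomes, and Stbd1, a glycogen-binding protein, had log2 fold changes of -0.10 and -0.08.

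None of the tested genes of kinases and phosphatases that act on these enzymes, regulatory subunits included, passed the test. Gsk3b, a kinase that inhibits glycogen synthase, had signals of 154.1, 134.0 and 174.4 in diabetic and 105.6, 112.9 and 75.8 in normal diaphragm. All diabetic arrays were above all normal arrays. The normal mean of 98.1 was under the filter level of 105.8, so that the gene was tested only through its diabetic mean of 154.2, and the log2 fold change of 0.66 (standard error 0.26) did not pass (adjusted p = 0.154). Gsk3a, the related kinase, had signals of 271.1, 292.5 and 310.7 in diabetic and 371.3, 352.0 and 321.4 in normal diaphragm. Here all diabetic arrays were below all normal arrays, by -0.26 on the log2 scale (standard error 0.16, adjusted p = 0.379). Of the 10 kinase genes tested, with catalytic and regulatory subunits counted together, 7 had a negative and 3 a positive log2 fold change. All diabetic arrays lay below all normal arrays for 5 (50%), against 14.4% of all tested probe sets. They lay above all normal arrays for 1, Gsk3b, against 15.2% of all tested probe sets. The lowest value was that of Prkaa2, a catalytic subunit of the AMP-activated kinase, at -0.73 with overlapping groups (standard error 0.29, adjusted p = 0.164). Prkaa2 was singled out after its values were seen. Of the 6 phosphatase subunits and regulators, 3 had each sign. The glycogen-targeting subunits Ppp1r3a and Ppp1r3c were not analysed here.

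**Figure D5:**
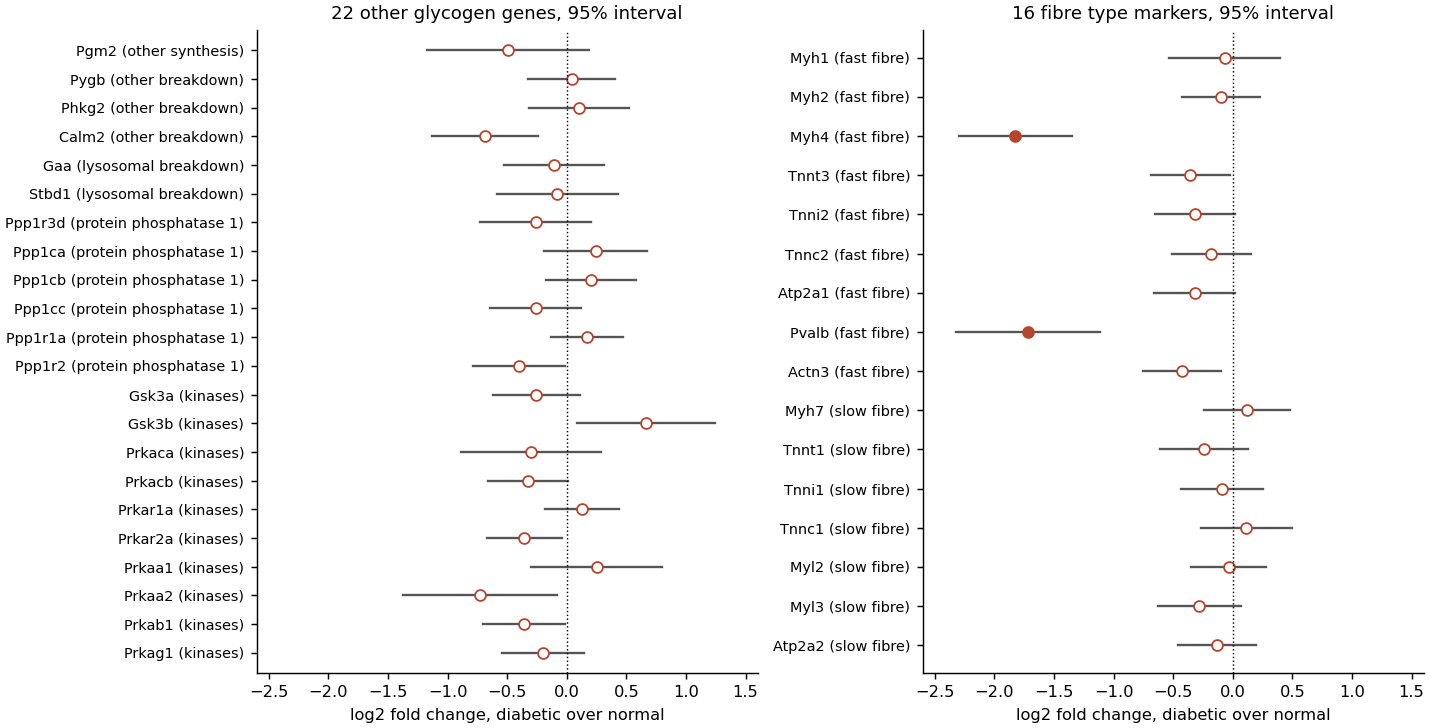
Log2 fold change, diabetic over normal, of the tested genes of the glycogen metabolism list and of the fast-fibre and slow-fibre markers, each by its brightest probe set, with filled circles for an adjusted p under 0.05. None of the 22 glycogen metabolism genes passed, with values of -0.73 to 0.66, and 2 of the 9 fast-fibre markers did.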

How the data were processed

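One RAE 230A array per rat was read for 3 diabetic and 3 normal rats, each grouped by its label. The deposited intensity values are signals that the authors computed with MAS 5.0 from the scanned arrays and that are already scaled per array. Nothing says that replicates share a batch. Signals under 1 were set to 1 (136 values) and put on the log2 scale. After 57 control probe sets and the dimmest probe sets (mean over 6 arrays up to 105.8, the 40th percentile) were left out, 9519 probe sets were tested with limma 3.58.1 in R 4.3.3 (lmFit and eBayes with a variance trend, 4 residual degrees of freedom) with Benjamini-Hochberg adjustment over all of them. The number of arrays limits the precision. The study's own test was not repeated.

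Genes were named from the platform annotation (12783 probe sets with 1 gene, 312 with several, 2771 with none). Members and lists were chosen with earlier results of these data known. All member genes were named, and of the glycogen list any gene that passed and otherwise a fixed few. Calm2, Stbd1, Gys2, Prkaa2, Mb and the fibre markers were named in addition, after their values were seen. Ratios were compared with exact permutation tests. The scripts were tested on simulated data. Alternatives were other scalings, offsets, filters, variance priors and weights, a replicate block and each array left out. Promoter sequences came from RefSeq (GRCr8), with all 9 genes matched.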

Additional observations from a re-analysis of the deposited data

How the results depend on the processing

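Over all tested probe sets 645 passed at an adjusted p under 0.05 by limma. The count was 427 with no filter, 332 with a replicate block, 1147 at an adjusted p under 0.1, and 318 to 428 with each array left out in turn. Of the 13 glycogen probe sets, 3 were lower. The count was 5 at an adjusted p under 0.1, 2 with no filter, with no variance trend and with the replicate block, and 1 to 3 with each array left out, the 1 being without normal replicate 3. None was higher in any setting. The brighter Pgm1 probe set was the call lost with no filter (adjusted p = 0.0515), with no trend (0.0525) and with the block (0.0565), and the cause was not tested. Between same-numbered rats, the correlations of deviations from the group means were 0.0977, -0.195 and -0.068. With no reference for their size, they cannot show whether such rats shared a batch or handling.

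Of the 16 synthesis over breakdown ratios, 4 did not overlap between groups. The count was 2 when a gene's probe sets were averaged, as both pairs with Phka1 then overlapped. It was 4 to 11 with each array left out, the 11 being without diabetic replicate 2, where fewer samples make separation easier. Values near 0 changed sign, namely Gyg1 (-0.0221 without diabetic replicate 1, range -0.0221 to 0.263), Ugp2 (0.0653 without normal replicate 2, range -0.327 to 0.0653) and Gbe1 over Pygm (-0.12 without diabetic replicate 3, range -0.12 to 0.448).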
